A study of Drosophila melanogaster with 36 samples.

Results

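Mitochondrial fatty acid beta oxidation was followed through 9 genes that encode enzymes or carriers of the pathway: whd, CG2107, CG12262, Arc42, Mtpalpha, Thiolase, scu, yip2 and wal. They were chosen by name as known genes of the pathway, with no threshold on a measured value but with earlier results of these data known. All 9 are among the 16727 genes of the count table, and all 9 passed the filter on low counts that left 9996 genes for testing. Their lowest count in any library used was 132, for scu, so none was near the detection limit.

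In this pathway a long-chain fatty acid is first joined to carnitine at the outer mitochondrial membrane, carried inwards and joined again to coenzyme A. A cycle of dehydrogenation, hydration, a further dehydrogenation and thiolysis then shortens the chain and releases acetyl-CoA, while electrons pass to the respiratory chain, some of them through the electron transfer flavoprotein. Flight muscle is packed with mitochondria, and the study followed it in fly models of obesity.

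RNA was sequenced from indirect flight muscle (IFM), the fibrillar muscle that powers the wings, of female flies at 3 weeks of age. WT flies were Canton-S on a normal diet, HFD flies were Canton-S on a high-fat diet, made by adding coconut oil to the standard food, and Sk2 flies were mutants of Sphingosine kinase 2 on a normal diet. Each model was kept under ad libitum feeding (ALF), with food always present, or under time-restricted feeding (TRF), with food in the light phase and plain agar in the dark phase. Groups are named by model and regimen, as in WT-ALF or Sk2-TRF, and there were 6 of them. Each had a single library every 4 h from ZT3 to ZT23, where ZT0 is lights on, and each library was a pool of 10 flies. The authors set aside 1 outlying library of WT-TRF, at ZT11, and 1 of Sk2-ALF, at ZT23. These were left out here too, so that 34 of 36 libraries were used, with n = 5 in those groups and n = 6 in the other 4. WT-TRF thus had no library at ZT11 and Sk2-ALF none at ZT23, so comparisons with these groups were not balanced over the day. The libraries of a group therefore differ in time of day as well as in the pool of flies, and p-values measure that joint spread. The Sk2 flies came from a single stock, so its mutation and its genetic background cannot be told apart.

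Library totals ranged from 3329519 to 30682673 counts over the 34 libraries. The Sk2 transcript itself was lower in the mutant, at 1.52 to 4.45 CPM (counts relative to the scaled total of the tested genes) in Sk2-ALF and 1.11 to 5.48 in Sk2-TRF, against 4.94 to 16.4 in the other 4 groups, so that 1 end of the mutant range touched the others. All 13 flight muscle markers were detected in every group, with summed levels of 22186 to 64904 CPM over the libraries. Fat body markers were also high, with a summed level of 6214 to 59739 CPM for the 5 of 6 markers in the table. Fat body cells carry out beta oxidation too, and in such bulk tissue fewer cells of a type and less RNA per cell cannot be told apart.

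The 9 genes differed widely in level. Scaled to exon length, CG12262, the medium-chain acyl-CoA dehydrogenase, was the most abundant, with a mean of 407 CPM per kilobase of exon over the 34 libraries. It was followed on that scale by wal, the alpha subunit of the electron transfer flavoprotein, at 210, by yip2, a 3-ketoacyl-CoA thiolase, at 186, and by whd, the carnitine palmitoyltransferase of the outer membrane (CPT1), at 173. Thiolase and Mtpalpha, the beta and alpha subunits of the trifunctional protein that completes the cycle on long chains, stood at 114 and 77.4. The lowest 3 were the short-chain acyl-CoA dehydrogenase Arc42 at 35.8, the 3-hydroxyacyl-CoA dehydrogenase scu at 35.4 and CG2107, the inner carnitine palmitoyltransferase (CPT2), at 31.3. Of the 2 carnitine palmitoyltransferases whd thus had the higher level, and Arc42, scu and CG2107 were close to each other. Even CG2107 had a level per kilobase above that of 77.2% of the genes tested, and CG12262 lay above 97.7%.

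Within groups the members varied about as much as all genes tested, and slightly more than genes of higher count. The SD of log2 CPM within groups was lowest for CG2107, at 0.24, and highest for Thiolase, at 0.41, and its median over the 9 genes was 0.33. The median over all 9996 genes was 0.34, and that over the 8036 genes with a mean count of at least 50 was 0.29. Over all libraries together the spread was widest for CG12262, with a coefficient of variation of 45.7%, and narrowest for whd, at 17.6%.

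The genes are spread over the genome. On the dm6 build, Mtpalpha lies on 2L:9573563-9576769 (minus strand) and yip2 on 2L:9915253-9917220 (plus strand). On 2R are whd (10469473-10478567, minus strand), wal (11688569-11690863, minus strand) and Thiolase (23866648-23868603, minus strand). CG2107 (3L:2981022-2983551), CG12262 (3L:7719350-7721472), Arc42 (3R:19877737-19879309) and scu (X:18091259-18092853) are on the plus strand. No exon base of any member is shared with a gene on the same strand. On the opposite strand, 353 of the 3175 exon bases of whd, 10 of Mtpalpha and 7 of Thiolase are shared with other genes, and counting was by strand.

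**Figure D1:**
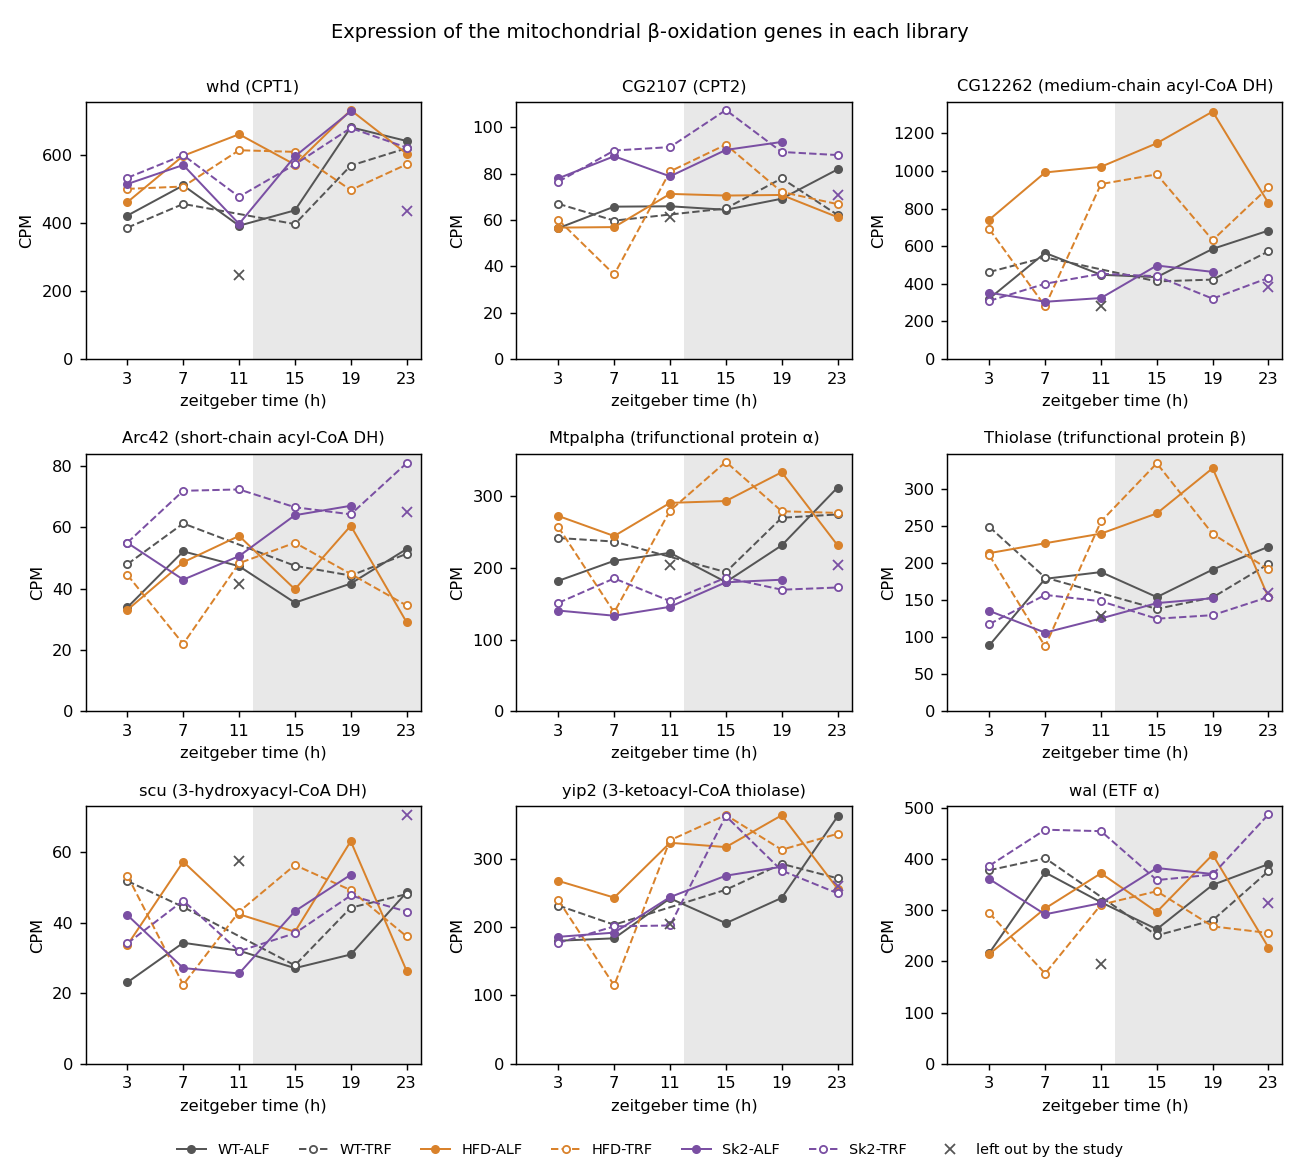
Level of each beta oxidation gene in every library (y axis, CPM scaled by trimmed mean of M values) against zeitgeber time in hours (x axis, grey for the dark phase), with lines joining the libraries of a group and crosses for the 2 libraries the study left out. CG12262 was 741 to 1316 CPM in HFD-ALF, above all 6 WT-ALF libraries, and the HFD-TRF library at ZT7 was the lowest of all 34 for 7 of the 9 genes.

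The first question was whether diet-induced obesity is accompanied by a change in these genes under ALF. CG12262 was the one member that passed the test, and it rose. It measured 322, 565, 448, 436, 586 and 683 CPM in WT-ALF from ZT3 to ZT23. In HFD-ALF it measured 741, 992, 1023, 1148, 1316 and 829 CPM at the same times. All 6 HFD-ALF libraries lay above all 6 WT-ALF libraries, which was the case for no other member and for 4.64% of all genes in either direction. The difference was 1.99-fold, or 0.99 ± 0.21 (SE) on the log2 scale, with an adjusted p of 0.00241 in edgeR's quasi-likelihood test with Benjamini-Hochberg adjustment over all genes. It stayed past the threshold when any 1 of the 34 libraries was left out.

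Calls in this comparison were common across the genome, at 16.6% of genes tested, with 9.42% higher and 7.17% lower. A count of 1 in 9 members is near that background. Both subunits of the trifunctional protein had higher means in HFD-ALF, and neither passed the test. Thiolase was 238 ± 58.0 CPM (SD, n = 6) against 171 ± 45.6 in WT-ALF, a log2 difference of 0.48 ± 0.22 with an adjusted p of 0.131 by edgeR. Mtpalpha was 278 ± 36.8 against 223 ± 48.3 CPM, a log2 difference of 0.32 ± 0.15 with an adjusted p of 0.154 by edgeR. The ranges of the libraries overlapped for both subunits. Without the WT-ALF library at ZT23, the highest of its group for both, Mtpalpha was past the threshold, with a log2 difference of 0.51 ± 0.15 and an adjusted p of 0.0215 by edgeR. Of the 9 members, 7 had a log2 difference above 0 and 2, CG2107 and wal, below it, at -0.06 ± 0.14 and -0.07 ± 0.17. The median log2 difference was 0.32 over the members and -0.06 over all genes. With library totals alone as the scaling, all 9 were above 0 and 3 passed the test, Thiolase and Mtpalpha being added to CG12262.

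Markers of other tissues moved in this comparison as well. Of 5 fat body markers 3 had lower levels in HFD-ALF and 2 higher, with a median log2 difference of -0.63. They summed to 7377 to 23873 CPM in HFD-ALF and to 15995 to 36763 in WT-ALF. Both edgeR and DESeq2 called 0 of the 5, with 1 at an unadjusted edgeR p under 0.05. Neuronal markers rose, 4 of 5 being called, with sums of 123 to 577 against 88.1 to 157 CPM. Of 4 ovary and eggshell markers tested 2 were called lower. Sums over all 13 in the table were 1.84 to 3.36 against 4.21 to 1296 CPM, with medians of 2.77 and 15.2. Of 4 hemocyte markers 1 was called lower. Of the 13 flight muscle markers edgeR called 0, with 3 at an unadjusted p under 0.05, and DESeq2 called 1. The part of these tissues in the level of CG12262 was not tested.

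Under TRF the same diet comparison gave no call. CG12262 measured 463, 541, 413, 423 and 573 CPM in WT-TRF. In HFD-TRF it measured 691, 281, 931, 982, 632 and 914 CPM from ZT3 to ZT23. Of these, 5 libraries exceeded all WT-TRF libraries, and the library at ZT7 was the lowest of all 34. The log2 difference was 0.61 ± 0.22, with an adjusted p of 0.0765 in edgeR. Of the 9 members, 0 were called with edgeR and 1, CG12262, with DESeq2, and 1 had an unadjusted p under 0.05 in edgeR. Across all genes 10.5% were called, 5.73% higher and 4.74% lower, and 5.14% had groups without overlap, which none of the members had.

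The HFD-TRF library at ZT7 decided this call. Without it, the log2 difference of CG12262 was 0.78 ± 0.19, with an adjusted p of 0.00975 by edgeR, and none of the other members passed the test. That CG12262 was past the threshold under ALF and not under TRF does not show a different diet effect: the test of that difference, TRF effect in HFD against TRF effect in WT, gave a log2 value of -0.38 ± 0.31 and an adjusted p of 0.834 in edgeR. At the other end of the order, wal and Arc42 had lower means in HFD-TRF, with log2 differences of -0.30 ± 0.17 and -0.28 ± 0.19 that did not pass the test. The median log2 difference was 0.11 over the members and -0.02 over all genes. Without HFD-TRF at ZT7 the median of the members was 0.20, wal was at -0.20 and Arc42 at -0.15, and the difference in TRF effect for CG12262 was -0.21 ± 0.25 and again did not pass the test. HFD-ALF and HFD-TRF were compared with different WT libraries.

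Tissue markers were compared between HFD-TRF and WT-TRF as well. Of 5 fat body markers 3 had lower levels in HFD-TRF and 2 higher, with a median log2 difference of -0.67, with sums of 6214 to 37416 against 24438 to 47919 CPM. edgeR called 0 of the 5, with 3 at an unadjusted p under 0.05, and DESeq2 called 2. Of 4 hemocyte markers 1 was called lower. The 2 oenocyte markers had a median of -2.32, with 0 called by edgeR, 2 at an unadjusted p under 0.05 and 2 called by DESeq2. Of the flight muscle markers 1 of 13 was called, lower. Their part in the levels of the members was not tested.

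The genetic model gave another set of calls. In Sk2-ALF, Mtpalpha fell, and it was again the one member called. Its 5 libraries from ZT3 to ZT19 measured 141, 133, 146, 180 and 183 CPM. Those of WT-ALF measured 182, 210, 221, 180, 231 and 312 CPM from ZT3 to ZT23. Of the 5 Sk2-ALF libraries, 4 lay below every WT-ALF library, and the one at ZT19 lay just above the 2 lowest of them. The difference was -0.51 ± 0.16 on the log2 scale, or 0.703 times the WT level, with an adjusted p of 0.0205 in edgeR. The HFD-ALF and Sk2-ALF comparisons share the WT-ALF libraries.

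This call was not stable. Without WT-ALF at ZT23, its highest WT library, the adjusted p rose to 0.107 by edgeR and the log2 difference shrank to -0.35. Sk2-ALF had no library at ZT23, so this fit held the same time points in both groups, unlike the main one. With the time point added to the main fit as a block, the call stayed. The call was also lost without Sk2-ALF at ZT3, ZT7 or ZT11, with adjusted p-values of 0.0568 to 0.0628 by edgeR. With the 2 libraries left out by the study put back, the log2 difference was -0.41 with an adjusted p of 0.0650 by edgeR. Calls were made for 22.8% of all genes, 10.2% higher and 12.7% lower, and 12.0% of genes had groups without overlap, which none of the members had. Thiolase, the partner subunit, was 133 ± 18.3 against 171 ± 45.6 CPM, a log2 difference of -0.36 ± 0.23 with an adjusted p of 0.282 by edgeR. CG2107 was 85.7 ± 6.97 against 67.3 ± 8.30 CPM, a log2 difference of 0.35 ± 0.14 that missed the threshold in edgeR with an adjusted p of 0.0740. It passed with DESeq2, with an adjusted p of 0.0447, and in 9 of the 34 edgeR fits with 1 library left out, among them the one without WT-ALF at ZT23, where its log2 difference was 0.45 ± 0.15. CG12262, which rose in HFD-ALF, had a log2 difference of -0.38 ± 0.22 here and did not pass the test.

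Under TRF, Sk2 flies differed from WT flies in 2 members. Mtpalpha fell again: its 6 Sk2-TRF libraries measured 151, 185, 154, 186, 170 and 173 CPM, and those of WT-TRF measured 242, 237, 194, 270 and 274 CPM. The groups did not overlap, as for 14.9% of all genes and for no other member. The difference was -0.52 ± 0.16 on the log2 scale, or 0.698 times the WT level, with an adjusted p of 0.0163 in edgeR. It passed the test in 32 of the 34 fits with 1 library left out, the exceptions being without WT-TRF at ZT19 or ZT23, where the adjusted p was at most 0.0570 by edgeR.

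CG2107, the CPT2 that rejoins fatty acids to coenzyme A inside the mitochondrion, rose. It measured 67.0, 59.8, 65.0, 78.0 and 62.2 CPM in WT-TRF. In Sk2-TRF it measured 76.5, 90.0, 91.5, 107, 89.4 and 88.1 CPM. The ranges met through the Sk2-TRF library at ZT3 and the WT-TRF library at ZT19. The difference was 1.36-fold, or 0.45 ± 0.14 on the log2 scale, with an adjusted p of 0.0206 in edgeR. Without Sk2-TRF at ZT15 the adjusted p was 0.0574 by edgeR. Of all genes, 24.9% were called in this comparison, 12.3% higher and 12.7% lower, so 2 of 9 members is close to the background.

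The other members of Sk2-TRF were not called. Arc42, which acts on short chains, was 68.5 ± 8.78 against 50.5 ± 6.54 CPM in WT-TRF, a log2 difference of 0.44 ± 0.19 with an adjusted p of 0.0916 by edgeR, which fell to 0.0403 without WT-TRF at ZT7. The electron carrier wal was 419 ± 53.8 against 338 ± 67.3 CPM, a log2 difference of 0.31 ± 0.17. Thiolase was 139 ± 16.7 against 184 ± 43.2 CPM, a log2 difference of -0.41 ± 0.23. Both trifunctional protein subunits therefore had lower means in Sk2 flies under either regimen, and of the 2 only Mtpalpha passed the test. The members split evenly, with 4 above 0 and 5 below, around a median log2 difference of -0.03, against -0.05 over all genes.

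Flight muscle markers were lower in the Sk2 comparisons: 5 of 13 were called lower under ALF, and 3 lower and 1 higher under TRF. Their summed level was 24487 to 54751 CPM in Sk2-ALF against 30329 to 64904 in WT-ALF, and 22186 to 39372 in Sk2-TRF against 35774 to 61338 in WT-TRF. Of the 5 fat body markers edgeR and DESeq2 called 0 in either, with 1 at an unadjusted edgeR p under 0.05 under ALF and 0 under TRF. Called lower in Sk2-ALF were also 2 of 4 ovary and eggshell markers, 1 of 8 gut markers and 1 of 4 hemocyte markers, and in Sk2-TRF 1 of 4 ovary and eggshell and 1 of 4 hemocyte markers. Whether the share of muscle RNA bears on the levels of Mtpalpha or CG2107 was not tested.

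**Figure D2:**
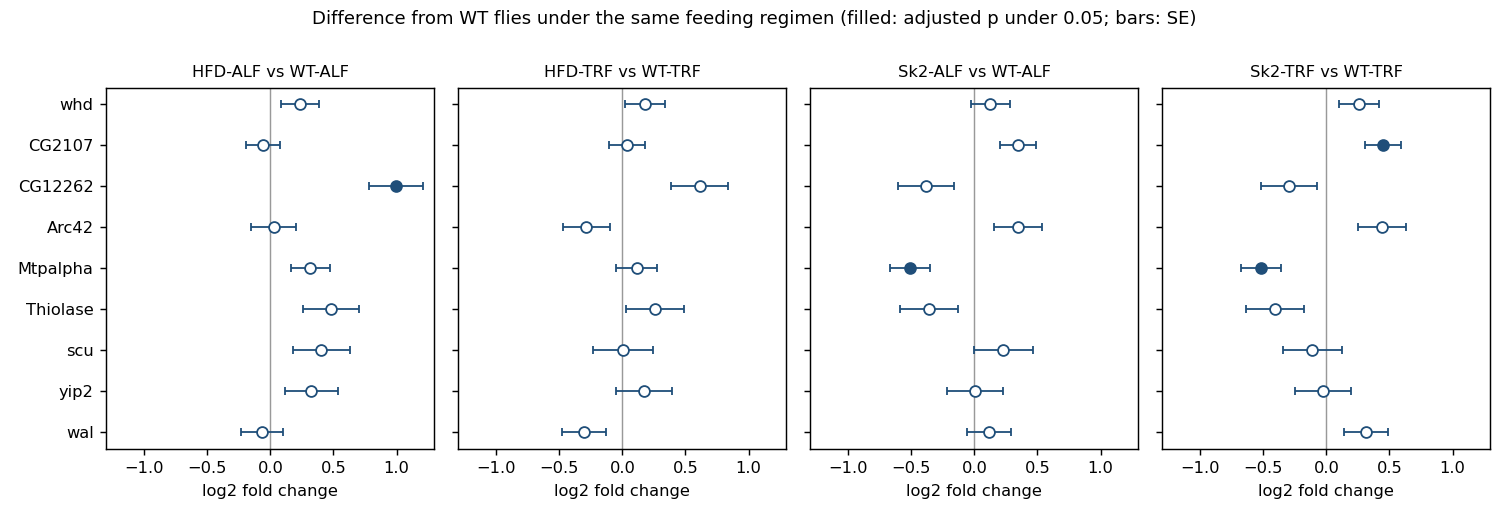
Log2 fold change (x axis) of each beta oxidation gene (y axis) in HFD and Sk2 flies against WT flies under the same feeding regimen, from edgeR. Points are estimates, bars are standard errors, and filled points have an adjusted p under 0.05; these are CG12262 in HFD-ALF (0.99), Mtpalpha in Sk2-ALF (-0.51) and in Sk2-TRF (-0.52), and CG2107 in Sk2-TRF (0.45).

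The study's central comparison was TRF against ALF within a model. At an adjusted p under 0.05, edgeR called 0 of 9 members in each model. This was also the state of nearly all genes: 0% were called in WT, 0.0600% in HFD and 0.0800% in Sk2. The threshold used by the study was looser, an unadjusted p not above 0.05 with a change not under 0.32 on the log2 scale in either direction. By this rule 5.96% of genes passed in WT, 11.3% in HFD and 6.73% in Sk2. Of the members, 0 passed this threshold in WT and Sk2 and 1, CG12262, passed in HFD. DESeq2 called 0 members in each model at an adjusted p under 0.05.

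CG12262 in HFD flies was 1008 ± 209 CPM under ALF and 739 ± 264 under TRF (SD, n = 6 each), a log2 difference of -0.45 ± 0.21 with an unadjusted p of 0.0428 and an adjusted p of 0.341 in edgeR. The TRF library was the lower one at 5 of 6 time points. This difference rested on the library at ZT7: without it the log2 difference was -0.28 ± 0.18 and the unadjusted edgeR p was 0.125. It also fell short of the study's threshold without HFD-ALF at ZT7, ZT15 or ZT19, or without HFD-TRF at ZT3 or ZT19.

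Among the other genes, scu had the widest TRF difference in WT flies, at 43.3 ± 9.16 against 32.7 ± 8.76 CPM, a log2 difference of 0.40 ± 0.24 with an adjusted p of 0.711 by edgeR. The TRF library was the higher one at 4 of 5 time points for scu. The CPT1 gene whd was lower under TRF at each of the 5 time points in WT, by 0.05 to 0.26 on the log2 scale. Its fitted difference was -0.08 ± 0.16. That fit did not pair the time points, so its error also holds the spread over the day. In Sk2 flies wal and Arc42 had the widest differences, at 0.28 ± 0.17 and 0.29 ± 0.19 on the log2 scale, with adjusted p-values of 0.663 and 0.676 by edgeR. No member had groups without overlap, and of all genes 0.990% did in WT, 0.260% in HFD and 0.790% in Sk2.

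The signs of these differences were mixed over the models. In WT 6 members were above 0 and 3 below, in HFD 2 were above and 7 below, and in Sk2 all 9 were above 0. Without HFD-TRF at ZT7, Mtpalpha, yip2, Thiolase and Arc42 were above 0 in HFD as well, and the median of the members there moved from -0.11 to 0.05. With library totals alone as the scaling, 4 of the 9 were above 0 in Sk2, where the median of all genes moved by -0.07. Tests of the difference in TRF effect between models called 0 of 9 members for HFD against WT and 0 for Sk2 against WT in edgeR, with 0 members at an unadjusted p under 0.05 in either and 0 called by DESeq2. Of all genes 0% and 0.0100% were called. The standard errors of the TRF differences were 0.13 to 0.24 on the log2 scale, and even the widest difference, that of CG12262 in HFD, was not past the threshold at this spread.

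Markers of other tissues were compared between the regimens in the same libraries, and none passed the test. Fat body markers had higher levels under TRF for all 5 genes in each model, with a median log2 difference of 0.56 for WT, 0.40 for HFD and 0.65 for Sk2 flies. edgeR and DESeq2 called 0 of them, and 1, 2 and 2 had an unadjusted edgeR p under 0.05. Of 8 gut markers all had lower levels under TRF in WT and Sk2 and 7 did in HFD, also with 0 called by either tool and with 4 at an unadjusted edgeR p under 0.05 in WT and 0 in the other models. Neuronal markers had lower levels under TRF in HFD for all 5 genes, with a median log2 difference of -1.14, 4 at an unadjusted edgeR p under 0.05 and 0 called by either tool. In the test of their TRF effect in HFD against that in WT, the median was -1.49, with 4 at an unadjusted edgeR p under 0.05 and 0 called by either tool. Their part in the levels of the beta oxidation genes was not tested.

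**Figure D3:**
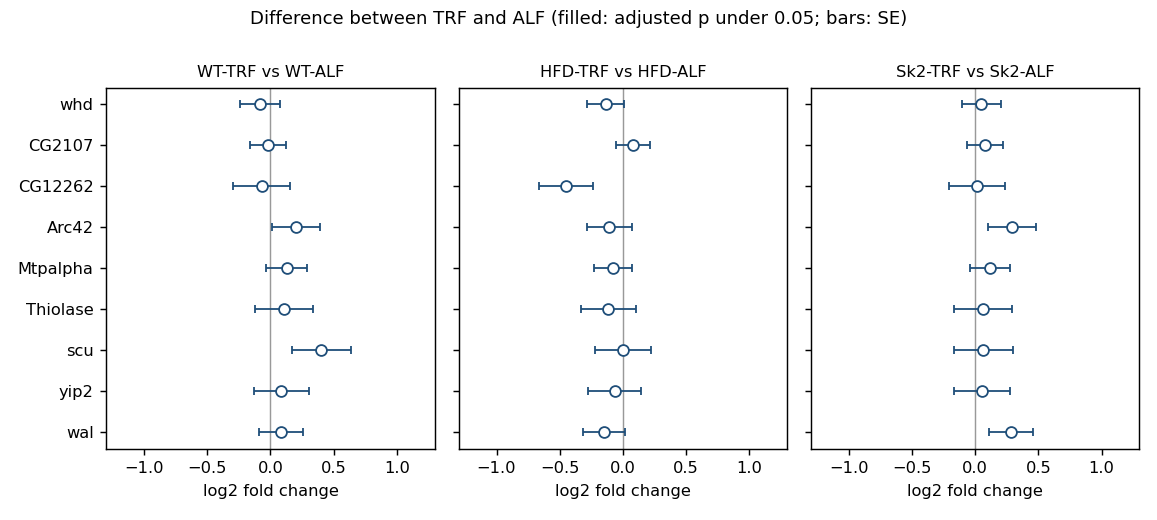
Log2 fold change (x axis) of each beta oxidation gene (y axis) between TRF and ALF within WT, HFD and Sk2 flies, from edgeR, with bars for standard errors and open points for an adjusted p of 0.05 or above. All points are open, and the one farthest from 0 is CG12262 in HFD flies, at -0.45.

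Time of day was the remaining variable. The clearest member was yip2, the thiolase. A cosine of 24 h over all groups, with a mean of its own for each group, fitted a peak at ZT17.9 and a peak-to-trough difference of 0.66 on the log2 scale, or 1.58-fold, with an adjusted p of 0.0177 in edgeR. The time points showed this directly. At ZT3 and ZT7, yip2 lay below the mean of its own group in all 6 groups, by 0.25 and 0.43 on average, and at ZT19 it lay above in all 6, by 0.24 on average.

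In CPM, yip2 measured 180, 184, 242, 206, 243 and 362 in WT-ALF from ZT3 to ZT23. In HFD-TRF it measured 240, 115, 327, 365, 314 and 337. In Sk2-TRF it measured 177, 201, 203, 363, 283 and 250. In these groups the libraries at ZT3 and ZT7 were the lowest. HFD-ALF departed from this, with 268, 243, 324, 317, 364 and 257 CPM, where ZT23 lay below ZT3. The highest library came in the dark phase in all 6 groups. The yip2 call passed the threshold without any 1 of the 34 libraries, with adjusted p-values of 0.0116 to 0.0348 by edgeR. It did not pass when counts were thinned to the lowest total, where the adjusted p was 0.0704. Of all genes 1.78% were called for this cosine, and 1 of 9 members was.

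At an unadjusted p under 0.05 the cosine had 4 members, yip2, CG2107, whd and Mtpalpha, and 14.9% of all genes. CG2107 had a fitted peak at ZT16.6 and a peak-to-trough difference of 0.34, with an adjusted p of 0.118 by edgeR and 0.0484 by DESeq2. For whd the fitted peak was at ZT20.0 and the difference 0.35, with an adjusted p of 0.185 by edgeR. It lay below its group mean at ZT3 in all 6 groups and above it at ZT19 in 5 of 6. Fitted peaks of the 9 members ran from ZT14.8 for Arc42 to ZT21.0 for scu, all in the dark phase. For Arc42, scu, Thiolase, CG12262 and wal the unadjusted edgeR p of the cosine was 0.135 or above, so their peak times are poorly set. The share of all genes with a fitted peak in the dark phase was not counted. The peak-to-trough difference of wal, at 0.07, was the smallest, so its peak time says little.

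Day and night libraries were compared under each regimen. Night was ZT15, ZT19 and ZT23, when ALF flies had food and TRF flies did not. Under ALF all 9 members were higher at night, with log2 differences of 0.07 for Arc42 to 0.38 for CG12262 and a median of 0.24, against -0.01 over all genes. edgeR called 0 of them, as it called 0% of all genes, and DESeq2 called 0 too. At an unadjusted p under 0.05, 3 members passed: whd at 0.32 ± 0.11, yip2 at 0.34 ± 0.14 and CG12262 at 0.38 ± 0.17. Of all genes 4.53% did.

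Under TRF 8 of 9 members were higher at night, with a median log2 difference of 0.13 against -0.01 over all genes, and wal was below 0, at -0.09 ± 0.14. edgeR called 0 members, with 0.0400% of all genes called. DESeq2 called 1, yip2, with an adjusted p of 0.0365. At an unadjusted p under 0.05 there were 2 members in edgeR, yip2 at 0.52 ± 0.14 and CG2107 at 0.22 ± 0.11, and 7.53% of all genes. Without HFD-TRF at ZT7, CG2107 was at 0.13 ± 0.08, Thiolase, Arc42 and scu joined wal below 0, and the median over the members was 0.0023. Fat body markers lay lower at night under TRF for all 5 genes, with a median log2 difference of -0.56, and had a median of -0.04 under ALF, with 0 called by edgeR or DESeq2 under either and 0 under ALF and 1 under TRF at an unadjusted edgeR p under 0.05. Flight muscle markers were higher at night for 10 of 13 genes under ALF, with a median of 0.19 and 3 at an unadjusted edgeR p under 0.05, and gut markers for 8 of 8 under TRF, with a median of 0.94 and 1 at an unadjusted p under 0.05, with 0 called by either tool in both. Their part in the night levels of the members was not tested. The night difference of the members did not pass the test for a change between regimens: edgeR called 0 of 9 and DESeq2 0, 0 had an unadjusted p under 0.05 against 4.79% of all genes, and 0% of all genes were called.

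Within single groups the night difference was uneven. yip2, whd, CG2107 and Mtpalpha were higher at night in all 6 groups, CG12262 in 5, Thiolase, scu and wal in 4, and Arc42 in 3. In Sk2-ALF, with 3 day and 2 night libraries, every night library was above every day library for 9 of 9 members, where 14.2% of all genes showed this. With the library at ZT23 put back it held for 5 of 9. In WT-TRF it held for 1 member, yip2, and for 9.60% of all genes, while wal had every night library below every day library, as had 13.5% of all genes. In Sk2-TRF it held for 1 member, yip2, and for 5.96%. It held for 0 members in WT-ALF, HFD-ALF and HFD-TRF, where the shares of all genes were 3.76%, 2.20% and 3.40%.

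**Figure D4:**
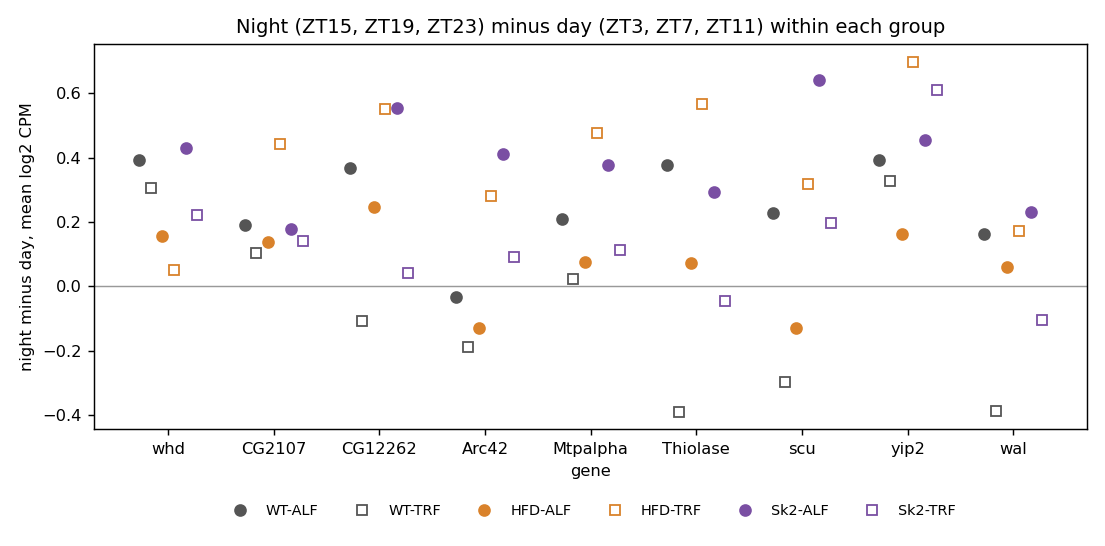
Mean log2 CPM of the night libraries minus that of the day libraries (y axis) for each beta oxidation gene (x axis) within each of the 6 groups, with circles for ALF and squares for TRF. The 6 points of yip2 lie between 0.16 and 0.70, all above 0, while those of wal lie between -0.39 and 0.23.

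The members moved together from library to library. After the mean of its group was taken from each gene, Pearson's r over the 34 libraries was above 0 for all 36 pairs of members, with a median of 0.74 and a range of 0.32 to 0.89. These r describe libraries that share their depth, scaling and dissection, and carry no test. The highest was between Arc42 and wal, the acyl-CoA dehydrogenase and the flavoprotein that takes its electrons, and the lowest was between whd and Thiolase. whd was the least alike, with a median r of 0.45 to the other 8, and Thiolase the most, with 0.80. Part of this likeness came from the HFD-TRF library at ZT7. Without it the median r was 0.60 over 33 libraries and the range 0.23 to 0.86, still with all 36 pairs above 0.

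That library stood apart. In HFD-TRF at ZT7 all 9 members were below their group mean, with a median deviation of -0.88 on the log2 scale, and 7 of the 9 had their lowest value of all 34 libraries there. Its total of 23297901 counts was among the larger ones, and its median deviation over all genes was 0.02. It also had the lowest fat body marker sum of all 34 libraries, at 6214 CPM, against 14174 to 37416 in the other HFD-TRF libraries, and a flight muscle sum of 47329 CPM within the range of its group. The genes listed below as other mitochondrial beta oxidation genes had a median deviation of -0.63 there. The part of the fat body in this was not tested. Over the 6 groups, the library lowest for the members was also the lowest for fat body markers in 2 groups and for flight muscle markers in 2.

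**Figure D5:**
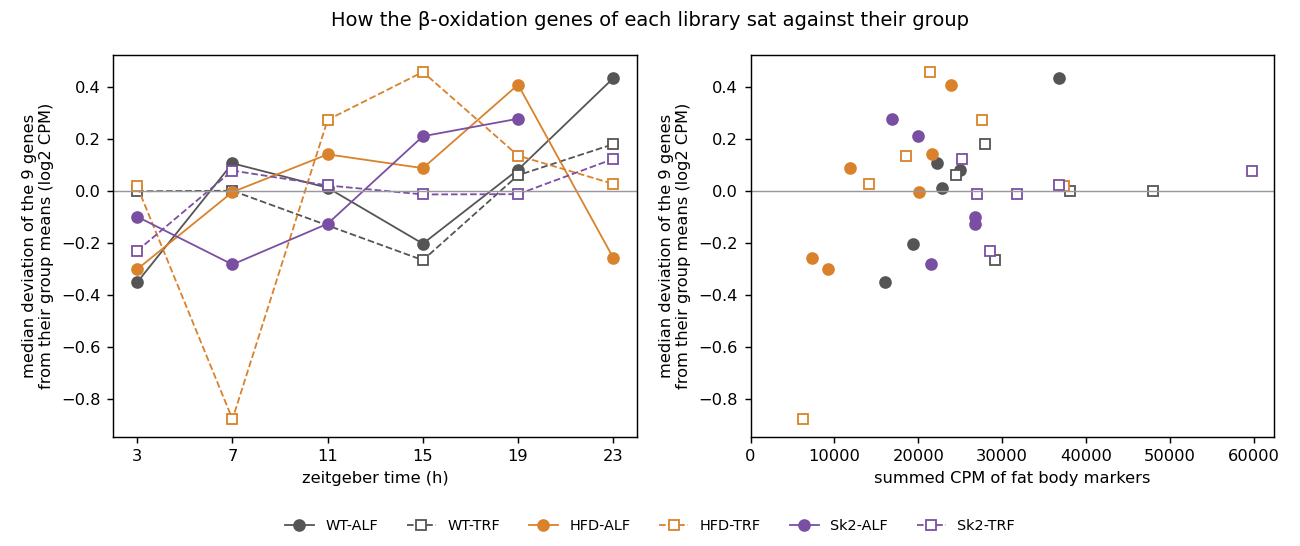
Median deviation of the 9 beta oxidation genes from their group means in each library (y axes, log2 CPM), against zeitgeber time in hours (left) and against the summed CPM of 5 fat body markers (right), with circles for ALF and squares for TRF. HFD-TRF at ZT7 is lowest on both axes of the right panel, at -0.88 and 6214 CPM, and the other libraries lie between -0.35 and 0.46.

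The genes most like each member across libraries, by the same r among 8035 other genes with a mean count of at least 50, were partly other members. CG2107 and yip2 were each other's nearest gene (r = 0.87), and Mtpalpha had yip2, CG2107 and CG12262 as its nearest 3 (r = 0.84 to 0.87). scu was nearest to CG6543 (r = 0.89), the short-chain enoyl-CoA hydratase that catalyses the step before it. Thiolase was nearest to CG5590 (r = 0.95) and CG12262 to CG7280 (r = 0.88). Arc42 and wal were nearest to mitochondrial genes outside the pathway, EfTuM, a mitochondrial translation elongation factor, for Arc42 (r = 0.91), and l(2)35Di for wal (r = 0.97), with NDUFS3, a subunit of respiratory complex I, also among the nearest 3 for wal (r = 0.96). whd was nearest to CG11412 (r = 0.75), with the peroxisomal import receptor gene Pex5 also among its nearest 3 (r = 0.74). The median r over all these genes was 0.00 to 0.03.

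Beyond the members, a list of 20 genes written as other mitochondrial beta oxidation genes was followed, of which 19 were tested. It was not confined to fatty acids: it includes, for example, CG9547, the glutaryl-CoA dehydrogenase of lysine breakdown, called higher in Sk2-ALF and in Sk2-TRF. The counts for this list are therefore not of fatty acid oxidation alone. The shares of all genes called, given above, were 16.6% in HFD-ALF, 10.5% in HFD-TRF, 22.8% in Sk2-ALF and 24.9% in Sk2-TRF, and the counts here and in the lists that follow stand beside them. In HFD-ALF 5 of the 19 were called, 1 higher and 4 lower, around a median log2 difference of -0.21, where the 9 members had 0.32. In HFD-TRF 1 was called, lower. In Sk2-ALF 3 were called, 2 higher and 1 lower, and in Sk2-TRF 10, of which 7 were higher and 3 lower, around a median of 0.49. edgeR and DESeq2 called 0 of the 19 for TRF against ALF in each model, with 0, 3 and 3 at an unadjusted edgeR p under 0.05 in WT, HFD and Sk2.

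Single genes in that list, which was not confined to fatty acid oxidation, changed more than any member did. That CG9914 takes part in fatty acid oxidation was not established here. CG9914 was 9.30 ± 7.09 CPM in HFD-ALF against 47.0 ± 31.3 in WT-ALF, a log2 difference of -2.35 ± 0.50 with an adjusted p of 0.00204 by edgeR. CG7461, the very long-chain acyl-CoA dehydrogenase, was 227 ± 29.8 CPM in Sk2-ALF against 526 ± 86.3 in WT-ALF, a log2 difference of -1.21 ± 0.19 with an adjusted p of 1.78e-05 by edgeR. It was 259 ± 43.8 in Sk2-TRF against 509 ± 56.2 in WT-TRF, a log2 difference of -0.97 ± 0.18. CG10932, an acetyl-CoA acetyltransferase, was 82.2 ± 16.5 against 35.6 ± 7.91 CPM under ALF and 108 ± 10.4 against 42.8 ± 9.91 under TRF, with log2 differences of 1.21 ± 0.18 and 1.33 ± 0.19 and adjusted p-values of 9.94e-06 and 3.42e-06 by edgeR. CG9547, the glutaryl-CoA dehydrogenase of lysine breakdown, was 22.3 ± 2.80 in Sk2-TRF against 10.4 ± 2.98 CPM in WT-TRF, a log2 difference of 1.10 ± 0.29.

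The lists around the pathway gave scattered calls. Of 7 acyl-CoA synthetase and uptake genes tested, 1 was called in HFD-ALF, lower, and 1 in HFD-TRF, lower. In Sk2-ALF 4 were called, 2 higher and 2 lower, among them bgm, a very long-chain acyl-CoA synthetase gene, at 72.7 ± 61.8 against 184 ± 102 CPM. CG4500 was higher there, at 25.8 ± 25.1 against 4.08 ± 3.41 CPM, with wide errors. In Sk2-TRF 4 were called, 1 higher and 3 lower. The cosine called 2, bgm with a peak at ZT23.6 and CG4500 with a peak at ZT15.0. WT-ALF had a library at ZT23, near the fitted peak of bgm, and Sk2-ALF had none, so their bgm means cover different times.

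Of 8 peroxisomal genes, 2 were called lower in HFD-ALF and 2 lower in Sk2-ALF. The acyl-CoA oxidase gene Acox57D-d was called in both, at 17.8 to 33.3 CPM in HFD-ALF and 18.4 to 35.7 in Sk2-ALF against 32.9 to 66.0 in the WT-ALF libraries that both share. In HFD-TRF 1 was called, CG17544, another acyl-CoA oxidase gene, at 46.6 ± 14.9 against 14.3 ± 5.52 CPM, and in Sk2-TRF 1 was higher and 2 lower. Of 6 genes of ketone body and acetyl-CoA use, 1 was higher and 2 were lower in HFD-ALF, and 1 was higher in each of the other 3 model comparisons.

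Of 12 regulators, 2 were called in HFD-ALF, both lower. ACC, whose product malonyl-CoA inhibits CPT1, was 324 ± 32.8 against 563 ± 136 CPM there, a log2 difference of -0.79 ± 0.18, and AkhR, the receptor of the fat-mobilising adipokinetic hormone, was 70.6 ± 10.6 against 122 ± 35.8 CPM. ACC rose in Sk2 flies, to 1039 ± 172 CPM in Sk2-ALF against the same 563 ± 136 and to 1211 ± 122 in Sk2-TRF against 663 ± 148 in WT-TRF, with log2 differences of 0.88 ± 0.18 and 0.87 ± 0.19 and adjusted p-values of 0.000658 and 0.000969 by edgeR. In Sk2-ALF 5 were called, 2 higher and 3 lower, in HFD-TRF 2, both lower, and in Sk2-TRF 2, 1 higher and 1 lower. AkhR was among those lower in HFD-TRF, at 51.7 ± 15.4 against 97.4 ± 12.2 CPM. The cosine called 1 regulator, foxo, with a peak at ZT1.68. Of 15 genes of the tricarboxylic acid cycle, which burns the acetyl-CoA that beta oxidation makes, 0 were called in HFD-ALF by edgeR or DESeq2, with 0 at an unadjusted p under 0.05, and 7 were called lower in HFD-TRF, where 4.74% of all genes were. Among them were the succinate dehydrogenase subunits SdhA, at 1633 ± 465 against 2856 ± 592 CPM, and SdhC, at 520 ± 125 against 898 ± 175. These counts do not show a different diet effect under the 2 regimens. The test of that difference, TRF effect in HFD against TRF effect in WT, called 0 of the 15 by edgeR or DESeq2. All 15 were below 0 in it, with a median log2 value of -0.45, and 2 had an unadjusted edgeR p under 0.05, as had 798 of all genes. In Sk2-ALF 1 was higher and 1 lower, and in Sk2-TRF 4 were higher and 1 lower. For TRF against ALF within a model edgeR called 0 genes of these 5 lists, and DESeq2 called 2, 1 of the synthetases and 1 of the ketone body genes, both in HFD. At most 6 genes of a list had an unadjusted edgeR p under 0.05 there. These 6 were of the 15 tricarboxylic acid cycle genes in Sk2, where 835 of all 9996 genes had such a p. In Sk2, 14 of the 15 were higher under TRF, with a median log2 difference of 0.38. In HFD all 15 were lower, with a median of -0.25 and 3 at such a p, as had 1397 of all genes. In WT 14 were higher, with a median of 0.13 and 1 at such a p, as had 774 of all genes.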

How the data were processed

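Indirect flight muscle was profiled by single-end RNA sequencing in 36 pooled libraries. The authors deposited raw counts per gene, made with featureCounts 1.5.0-p1 by strand over exons of dm6 gene models, from uniquely aligned reads. The sources differ on the STAR version and on the genome build used for alignment, and the table's own header names a dm6 annotation, so positions are given on dm6. The deposited table also gives an exon length per gene, used as such. The counts were not normalized by the authors.

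The 6 groups came from the sample labels. The 2 libraries left out by the study were left out here. Counts were analysed with edgeR 4.0.16 under R 4.3.3. Genes were filtered by filterByExpr, libraries were scaled by TMM, and glmQLFit with glmQLFTest was run on 6 group means over all 34 libraries and 9996 genes. Night terms for each regimen, or a cosine and a sine of 24 h, were added for time of day. P-values were adjusted by Benjamini-Hochberg over all genes tested. CPM are relative to the TMM-scaled total of the genes tested, with a prior count of 2 added on the log2 scale. DESeq2 1.42.0 was an alternative, as were all 36 libraries, the compared groups alone, both other filters, RLE factors, library totals alone, thinned counts, the time point as a block and leaving out each library in turn. The steps were tested on simulated data with known changes. Figures were drawn with matplotlib 3.10.9.

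No 2 libraries of a group were identical. Markers of other tissues and the lists of pathway genes were written from general knowledge; the members and lists were chosen with earlier results of these data known. All 9 members are named. Of the other pathway genes, those called are named, at most the 4 with the largest change in each comparison, and up to 3 nearest genes for each member. Columns of the table that hold no sample of this series numbered 0. Sequences of the genes were not used here.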

Additional observations from a re-analysis of the deposited data

Results flagged for a closer look

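Of the 54 combinations of a member and a group, 1 held a library far from the others, where chance alone gives about 1 in 20. This was yip2 in WT-ALF at ZT23, at 362 CPM, against 243 CPM for the next highest of the 6 libraries. The gap took up 0.655 of the range of the group. All 9 members were above their group mean in that library, with a median deviation of 0.44 on the log2 scale, and its fat body marker sum of 36763 CPM was the highest of WT-ALF. The part of the fat body in this was not tested.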

How the results depend on the processing

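Members called changed by over 1.5 times in these cases. For HFD-ALF against WT-ALF the count went from 1 to 3 with library totals alone. For Sk2-ALF against WT-ALF it went from 1 to 0 with all 36 libraries and with thinned counts, and to 2, CG2107 being added, with the compared groups alone, a minimum of 10 counts per library, library totals alone, DESeq2 and the time point as a block. For HFD-TRF against WT-TRF it went from 0 to 1 with all 36 libraries, a minimum of 10 counts per library, library totals alone and DESeq2, the gene being CG12262. For Sk2-TRF against WT-TRF it went from 2 to 1 with thinned counts. DESeq2 gave 1 for night against day under TRF in place of 0, and 2 for the cosine in place of 1, while thinned counts gave 0 for the cosine. Leaving out 1 library gave 1 to 2 for HFD-ALF, 0 to 2 for Sk2-ALF, 0 to 1 for HFD-TRF and 1 to 3 for Sk2-TRF against WT, and changed the count in no other comparison. The cause was not tested in any of these cases. No call of a member changed sign. RLE factors moved the median of all genes by at most 0.03, and library totals alone by -0.07 to 0.09. Libraries of the same time point in different groups deviated together only slightly more than others (mean r of 0.06 over 80 pairs, against -0.01 over 401 pairs of other time points). The block for time point added CG2107, called at 0.35 with an adjusted edgeR p of 0.0456, in Sk2-ALF and changed no other call. Thinning all libraries to the lowest total ended the calls of Mtpalpha in Sk2-ALF, of CG2107 in Sk2-TRF and of yip2 for the cosine, with adjusted edgeR p-values of 0.0923, 0.102 and 0.0704.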

Other observations

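The 2 libraries that the study left out were used above only where all 36 libraries, or the library put back, are named. In WT-TRF at ZT11, whd measured 245 CPM, below all 34 libraries used, CG12262 284 CPM and wal 195 CPM, both below the other WT-TRF libraries, while scu, at 57.5 CPM, was above them. In Sk2-ALF at ZT23, scu measured 70.6 CPM, above all 34 libraries used, Mtpalpha 203 CPM and Thiolase 159 CPM, both above the other Sk2-ALF libraries, and CG2107, at 70.9 CPM, lay below them.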
